A study of Mus musculus with 11 samples.

Results

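Usage of immunoglobulin variable (V) segments in the colon was described for 145 segments, of which 68 belong to the heavy chain locus (Ighv), 74 to the κ light chain locus (Igkv) and 3 to the λ light chain locus (Iglv). They are the segments with at least 10 reads in at least 5 of 11 mice, out of 282 V segment rows in a count table of 43346 genes. Igkv19-93 held 2 overlapping rows and was used once. All 3 Iglv segments of the table passed this threshold, whereas 106 Ighv and 30 Igkv segments lay outside it. Between 90.1% and 99.4% of the Ighv reads of a mouse, and between 95.9% and 99.8% of its Igkv reads, fell on the segments described here. The threshold favors segments used in humanized mice, since 137 of the 145 reached it in the humanized mice alone and 12 in the germ-free mice alone.

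The libraries were made from colon tissue of 11 male Swiss Webster mice aged 8 to 10 weeks, 5 kept germ-free and 6 humanized. The humanized mice were born germ-free and received 300 μL of a stool suspension from 1 healthy human donor by gavage at 4 to 5 weeks of age, 4 to 5 weeks before the study. All mice were singly housed in isolators, and the sources used here do not give which mice shared an isolator. Swiss Webster mice are outbred, whereas the reads were aligned to mm10, the reference genome of the C57BL/6 strain, so alleles and segments that the reference lacks are not seen as such. Each value is that of 1 mouse.

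A V segment is joined to a joining (J) segment, and in the heavy chain also to a diversity segment, when a B cell assembles its antibody genes. Each B cell then expresses 1 productive heavy chain and 1 productive light chain, and a plasma cell that descends from it secretes the same antibody. In the gut, plasma cells of the lamina propria produce mainly dimeric IgA, which epithelial cells carry into the lumen. Reads on a V segment therefore count antibody transcripts that use it, as far as they align to the segment of the reference. Reads that differ much from it, or that fit several segments, can be missed. A segment is not a clone, since unrelated B cells can use the same segment, and RNA of whole tissue does not show which heavy and light chains were paired.

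The sequences of 9 segments that led the usage of at least 1 mouse, or that lie close to such a segment, are shown first because the reads of one segment are told from those of another only by the bases in which they differ. They are the last 300 bases of the V exon of each heavy chain segment and the 298 bases of the V exon of each κ segment, read 5′ to 3′ from the GENCODE annotation of GRCm38, which is mm10. Ighv1-64 lies at chr12:115507545-115507844 on the minus strand. The next 3 segments belong to the same family, and capitals mark the bases in which each differs from Ighv1-64.
Ighv1-64: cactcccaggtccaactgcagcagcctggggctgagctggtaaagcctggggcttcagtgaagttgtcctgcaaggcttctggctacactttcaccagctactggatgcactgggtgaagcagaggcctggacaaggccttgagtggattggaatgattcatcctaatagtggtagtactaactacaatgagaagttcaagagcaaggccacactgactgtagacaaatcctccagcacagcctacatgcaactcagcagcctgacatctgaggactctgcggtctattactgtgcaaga
Ighv1-53: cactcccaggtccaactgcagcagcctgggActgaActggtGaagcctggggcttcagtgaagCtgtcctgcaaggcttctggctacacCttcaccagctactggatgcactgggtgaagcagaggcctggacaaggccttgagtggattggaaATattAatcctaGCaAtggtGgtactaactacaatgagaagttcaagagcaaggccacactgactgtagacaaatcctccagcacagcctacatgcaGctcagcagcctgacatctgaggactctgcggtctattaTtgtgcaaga
Ighv1-47: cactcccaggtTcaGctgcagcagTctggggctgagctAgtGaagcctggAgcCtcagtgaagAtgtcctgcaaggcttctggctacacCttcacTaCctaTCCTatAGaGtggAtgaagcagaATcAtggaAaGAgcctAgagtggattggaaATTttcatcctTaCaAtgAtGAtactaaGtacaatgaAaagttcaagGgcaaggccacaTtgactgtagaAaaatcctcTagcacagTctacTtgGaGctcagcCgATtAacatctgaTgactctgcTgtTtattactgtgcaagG
Ighv1-4: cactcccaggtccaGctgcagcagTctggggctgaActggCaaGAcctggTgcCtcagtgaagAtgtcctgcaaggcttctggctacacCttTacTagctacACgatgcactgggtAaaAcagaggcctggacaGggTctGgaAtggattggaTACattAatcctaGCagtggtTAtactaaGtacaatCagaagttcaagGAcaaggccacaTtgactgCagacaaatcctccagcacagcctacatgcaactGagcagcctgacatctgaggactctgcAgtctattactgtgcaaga
Ighv1-53 at chr12:115158403-115158702 differs from Ighv1-64 in 14 of 300 bases, Ighv1-4 at chr12:114487136-114487435 in 36, and Ighv1-47 at chr12:114991108-114991407 in 53. No window of 101 bases, the read length, was shared between Ighv1-64 and any other annotated V segment. Ighv8-8, at chr12:115294062-115294361 on the minus strand, belongs to another family and was the heavy chain segment with the highest mean share in germ-free mice.
Ighv8-8: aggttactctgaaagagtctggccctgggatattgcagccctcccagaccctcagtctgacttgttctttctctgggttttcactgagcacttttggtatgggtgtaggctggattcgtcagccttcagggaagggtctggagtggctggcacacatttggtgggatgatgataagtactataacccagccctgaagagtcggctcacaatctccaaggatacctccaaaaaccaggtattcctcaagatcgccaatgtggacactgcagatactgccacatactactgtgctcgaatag
In the κ locus, Igkv5-43 at chr6:69823355-69823652, Igkv5-45 at chr6:69775750-69776047, Igkv5-39 at chr6:69900424-69900721 and Igkv5-48 at chr6:69726573-69726870 form 1 family on the minus strand. Capitals mark the bases in which each differs from Igkv5-43.
Igkv5-43: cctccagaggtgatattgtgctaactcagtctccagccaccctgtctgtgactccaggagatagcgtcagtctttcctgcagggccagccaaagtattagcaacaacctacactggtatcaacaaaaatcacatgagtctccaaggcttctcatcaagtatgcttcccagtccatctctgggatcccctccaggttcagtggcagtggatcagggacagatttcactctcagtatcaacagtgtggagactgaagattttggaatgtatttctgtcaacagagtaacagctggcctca
Igkv5-45: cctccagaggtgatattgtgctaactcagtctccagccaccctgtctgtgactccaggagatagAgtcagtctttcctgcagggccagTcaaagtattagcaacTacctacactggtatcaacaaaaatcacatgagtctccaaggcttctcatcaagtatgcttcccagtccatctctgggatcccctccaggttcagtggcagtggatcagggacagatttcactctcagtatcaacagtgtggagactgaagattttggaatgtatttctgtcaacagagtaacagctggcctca
Igkv5-39: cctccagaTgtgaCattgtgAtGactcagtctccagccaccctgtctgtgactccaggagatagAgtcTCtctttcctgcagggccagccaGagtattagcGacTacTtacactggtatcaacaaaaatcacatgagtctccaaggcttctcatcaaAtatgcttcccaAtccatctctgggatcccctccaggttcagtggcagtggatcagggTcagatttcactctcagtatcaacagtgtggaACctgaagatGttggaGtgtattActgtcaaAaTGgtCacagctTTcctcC
Igkv5-48: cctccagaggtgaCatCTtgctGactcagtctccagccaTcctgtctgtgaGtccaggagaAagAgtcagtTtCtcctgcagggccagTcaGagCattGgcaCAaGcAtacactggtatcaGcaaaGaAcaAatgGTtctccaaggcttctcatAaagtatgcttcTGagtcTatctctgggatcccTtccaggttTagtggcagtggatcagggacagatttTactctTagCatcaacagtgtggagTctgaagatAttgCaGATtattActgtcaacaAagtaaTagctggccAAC
Igkv5-45 differs from Igkv5-43 in 3 of 298 bases, Igkv5-39 in 26 and Igkv5-48 in 45. Of the windows of Igkv5-43, 47.0% also occur in Igkv5-45, so reads counted on either of these segments can come from the other. Among the described segments, 20 of 68 Ighv, 23 of 74 Igkv and 2 of 3 Iglv share at least 1 such window with another V segment.

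Reads on V segments were more abundant in humanized than in germ-free mice. The Ighv segments together had CPM (reads relative to the TMM-scaled library size) of 110.0, 15.9, 58.0, 35.1 and 68.3 in germ-free mice 1 to 5, and from 84.8 to 844 with a median of 459 in humanized mice. The groups overlapped only through humanized mouse 5, the lowest of its group, and germ-free mouse 1, the highest of its group. The Igkv segments together had CPM of 129, 20.998, 81.3, 49.0 and 106 in germ-free mice and from 118 to 1135 with a median of 633 in humanized mice. Here too humanized mouse 5 lay within the range of the germ-free mice. The ratio of group means was 8.35 for Ighv and 8.32 for Igkv.

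On the described segments, each germ-free mouse had between 831 and 6935 Ighv reads and between 1099 and 8164 Igkv reads. Each humanized mouse had 4028 to 34594 and 5615 to 42156. The libraries held between 39125290 and 64148538 counted reads. The V reads kept a similar proportion to the reads of their constant regions. Per heavy chain constant region read there were 0.249 ± 0.0379 (germ-free, SD, n = 5) and 0.251 ± 0.0362 (humanized, SD, n = 6) Ighv reads. For Igkv reads per read of Igkc, the κ constant region, the values were 0.822 ± 0.0637 and 0.771 ± 0.103. The lowest value of both ratios was that of humanized mouse 5, with 0.185 and 0.582.

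Of all 19863 tested genes, 9.2% were higher and 10.1% lower in humanized mice at FDR below 0.01. Of 12 plasma cell marker genes, 9 had higher expression in humanized mice and none had lower expression, and their summed level was 141 to 185 RPKM in germ-free mice and 246 to 778 RPKM in humanized mice. Jchain (11.02 to 57.2 and 80.0 to 555 RPKM), Xbp1 (55.5 to 65.4 and 73.4 to 107 RPKM) and Sdc1 (55.7 to 61.9 and 53.0 to 80.8 RPKM) made up most of this sum. Jchain, whose product joins IgA into dimers, had an LFC of 3.21 (standard error 0.54, FDR = 6.64e-08), and Mzb1, a chaperone of antibody assembly, had an LFC of 3.49 (standard error 0.54, FDR = 1.63e-08). Of 10 B cell markers, only Cd79a, a signaling chain of the B cell receptor, was below an FDR of 0.01 (LFC 1.62, standard error 0.51, FDR = 0.00911). The summed level of the B cell markers was 2.15 to 5.26 RPKM in germ-free mice and 3.35 to 23.5 RPKM in humanized mice. All 9 smooth muscle markers were lower in humanized mice, with sums of 316 to 944 RPKM against 40.6 to 332 RPKM, and of 10 markers of colon epithelium 2 were higher. No marker of these lists was at 0 in every mouse. The part of these tissue markers in the V segment values was not tested. In RNA of whole tissue, fewer cells and less RNA per cell cannot be told apart.

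Usage was described as the share of a segment in the summed reads per kilobase of the described segments of its locus. Segments of different length can thus be compared, and reads on V segments outside the threshold are not in these shares. The spread of usage over segments was expressed as the effective number of segments, the exponential of the Shannon entropy, which is the number of equally used segments that would give the same evenness. For Ighv it was 14.6, 13.2, 22.1, 17.6 and 25.1 in germ-free mice, and 23.4, 30.4, 34.6, 32.8, 32.3 and 39.1 in humanized mice 1 to 6. Every humanized mouse but the first lay above all germ-free mice. The means were 18.5 ± 5.01 (SD, n = 5) and 32.1 ± 5.16 (SD, n = 6). For Igkv the effective number was 14.3, 14.3, 24.8, 25.1 and 21.5 in germ-free mice and 29.0, 42.7, 42.5, 43.1, 36.5 and 43.8 in humanized mice. The groups did not overlap, with means of 19.99 ± 5.38 (SD, n = 5) and 39.6 ± 5.84 (SD, n = 6).

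The depth of the V reads differed between groups, and an unevenly sampled locus can appear less diverse. With the reads of each mouse thinned to those of the shallowest, 831 for Ighv and 1099 for Igkv, the mean effective numbers were 18.0 and 30.9 for Ighv and 19.6 and 38.3 for Igkv in germ-free and humanized mice. Thinning thus moved each mean by less than the SD between mice. It evens out read numbers only. The number of plasma cells behind the reads was not measured, and its part in the difference was not tested. Because the threshold favors segments of humanized mice, the effective number was also computed over every V segment of the table. It was then 20.3 and 36.4 for Ighv and 20.4 and 41.3 for Igkv. Restricting the segments to those with at least 10 reads in at least 8 mice gave a smaller difference, with 14.97 and 20.8 for Ighv and 17.0 and 29.0 for Igkv.

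**Figure D1:**
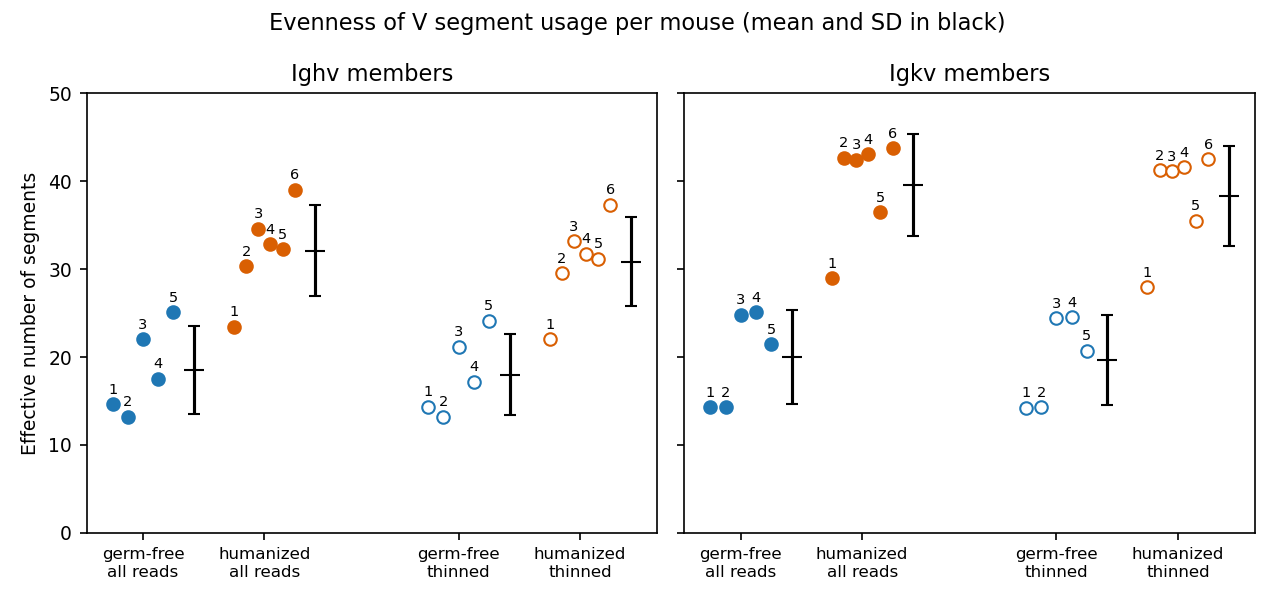
Effective number of Ighv (left) and Igkv (right) segments in every mouse, numbered as in the labels, with all reads (filled circles) and with reads thinned to the shallowest mouse (open circles). Black marks give the mean and SD of 5 germ-free (blue) and 6 humanized (orange) mice, and for Igkv all humanized mice lie above the highest germ-free mouse at 25.1.

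Dominance by single segments was stronger on average in germ-free mice, and the groups overlapped. The most used Ighv segment held 23.9%, 23.7%, 14.3%, 18.8% and 15.4% of Ighv usage in germ-free mice and from 8.61% to 16.4%, with a median of 11.8%, in humanized mice. The most used Igkv segment held 30.6%, 21.8%, 14.2%, 10.4% and 17.8% in germ-free mice and from 7.17% to 14.99%, with a median of 9.82%, in humanized mice. Humanized mice 1 and 4 in Ighv, and humanized mice 1 and 5 in Igkv, lay within the range of the germ-free mice. In germ-free mouse 2, the mouse with the fewest V reads, 192 of 831 Ighv reads fell on its leading segment, or 23.1% (95% Wilson interval 20.4% to 26.1%). Such intervals cover counting error only, and those of several mice overlapped between groups.

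The 5 leading Ighv segments together held 64.0%, 67.1%, 51.1%, 59.2% and 43.0% in germ-free mice, and 33.1% to 56.6% with a median of 40.3% in humanized mice. For Igkv these shares were 64.9%, 67.7%, 48.5%, 43.3% and 56.2% in germ-free mice and 27.6% to 47.7%, with a median of 30.0%, in humanized mice. From 3 to 7 Ighv segments made up 50% of usage in a germ-free mouse and from 4 to 11 in a humanized mouse. For Igkv these numbers were 3 to 7 and 6 to 12.

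**Figure D2:**
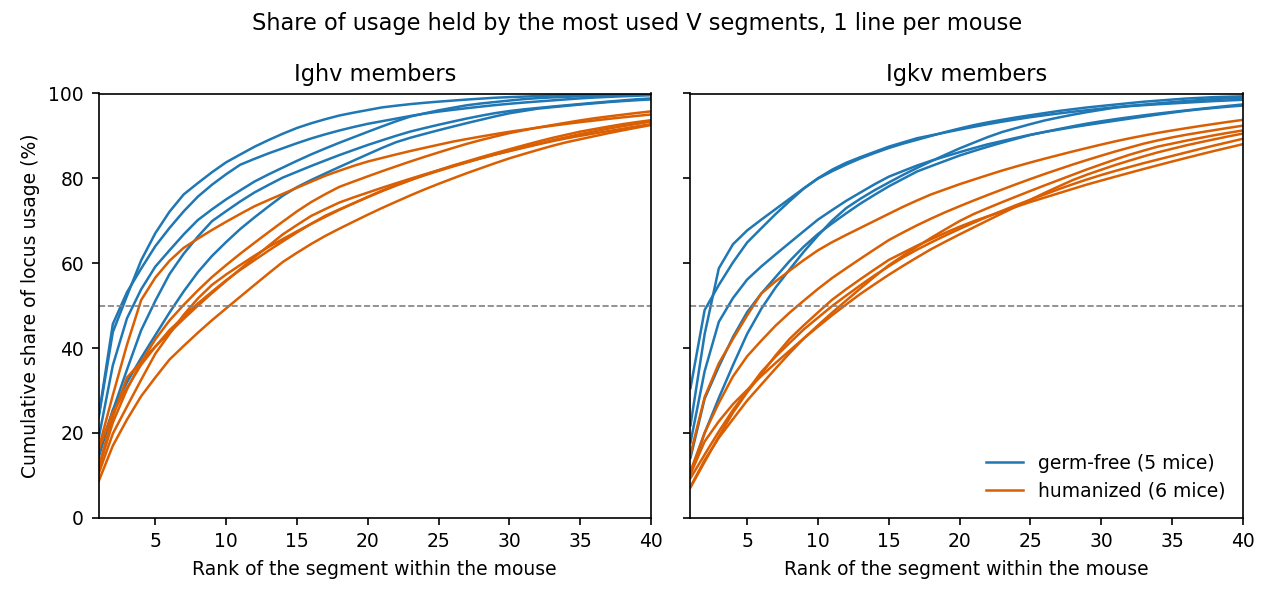
Cumulative share of locus usage (%) against the rank of the segment within each mouse, for Ighv (left) and Igkv (right), with 1 line per mouse (5 germ-free in blue, 6 humanized in orange). The dashed line marks 50%, which germ-free mice cross after 3 to 7 segments in both loci and humanized mice after 4 to 11 (Ighv) or 6 to 12 (Igkv).

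The leading heavy chain segment differed among germ-free mice and was largely shared among humanized mice. Ighv1-47 led in germ-free mouse 1, Ighv1-4 in mouse 2, Ighv1-26 in mouse 3 and Ighv8-8 in mice 4 and 5. In the humanized mice, Ighv1-64 led in 4 of 6, Ighv1-53 in mouse 1 and Ighv8-8 in mouse 5. Of the 18 Ighv segments among the 5 leading ones of any germ-free mouse, 13 were so in 1 germ-free mouse only. Of the 13 such segments of humanized mice, 6 were so in 1 humanized mouse only, and 5 were so in at least 3.

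Ighv1-64 was among the 5 leading segments of all 6 humanized mice and of 1 of 5 germ-free mice. Its share was 0.815%, 20.1%, 0.393%, 2.52% and 1.68% in germ-free mice and 12.5%, 11.5%, 10.4%, 16.1%, 11.7% and 8.61% in humanized mice. Germ-free mouse 2 had the highest share of all mice, from 163 reads, and the other 4 germ-free mice lay below every humanized mouse. In normalised reads it had an LFC of 5.50 (standard error 0.71, FDR = 3.62e-11), and the groups did not overlap. Ighv1-53, its near relative, had shares of 0.612%, 0.616%, 2.30%, 0.608% and 4.53% in germ-free mice and from 2.68% to 16.4%, with a median of 5.13%, in humanized mice (LFC of normalised reads 4.78, standard error 0.89, FDR = 1.17e-05). Its groups overlapped in share, and humanized mouse 1 stood above the others.

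Ighv4-1, the sole described member of its family, had a higher share in every humanized than in every germ-free mouse. Its shares were 0.904%, 0.209%, 0.103%, 1.70% and 0.902% in germ-free mice and from 2.69% to 11.9%, with a median of 3.68%, in humanized mice (LFC of normalised reads 5.95, standard error 0.90, FDR = 2.01e-07). Ighv1-5, picked after its values were seen, showed the same separation. It held 0%, 0%, 0.027%, 0.083% and 0.284% in germ-free mice and 1.76% to 3.95%, with a mean of 2.98% ± 0.753 (SD, n = 6), in humanized mice. Ighv6-3 was high in mice of both groups, with 5.27%, 0%, 0.298%, 6.82% and 0.189% in germ-free mice and 0.792% to 10.5%, with a median of 6.12%, in humanized mice (LFC of normalised reads 3.92, standard error 1.06, FDR = 0.0102). The 0 in germ-free mouse 2 allows a share of up to 0.361%, or 3 reads of its 831.

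The leading segments of single germ-free mice were rare in the others. Ighv1-47 held 23.9% in germ-free mouse 1, from 1725 reads, between 0.187% and 2.07% in the other germ-free mice, and 0.113% to 3.57% in the humanized group. Ighv3-8 was the second segment of the same mouse with 21.8%, and it held at most 3.75% elsewhere. Ighv1-4 held 23.7% in germ-free mouse 2, and it had between 0 and 2 reads in each of the other germ-free mice and between 40 and 183 reads in each humanized mouse. Ighv1-26 held 14.3% in germ-free mouse 3, whereas the next highest germ-free mouse had 1.85%, and humanized mice had 2.05% to 6.43%. These peaks thus belonged to 1 mouse each.

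Ighv8-8 behaved differently, being high in several germ-free mice. It held 7.50%, 1.81%, 9.67%, 18.8% and 15.4% in germ-free mice and was among the 5 leading segments in 4 of 5. In humanized mice its share was 0.569% to 12.1% with a median of 2.09%, and humanized mouse 5 had the highest value. Its level in normalised reads did not pass the test (LFC 1.07, standard error 0.74, FDR = 0.306), with an LFC of 0.38 without humanized mouse 2 (FDR = 0.747). Its mean share was 10.6% ± 6.66 (SD, n = 5) in germ-free and 3.74% ± 4.29 (SD, n = 6) in humanized mice, with overlap. Ighv3-6 (4.13% and 3.86%) and Ighv1-81 (4.39% and 3.26%) had mean shares in germ-free and humanized mice that differed by less than the SD of either group.

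**Figure D3:**
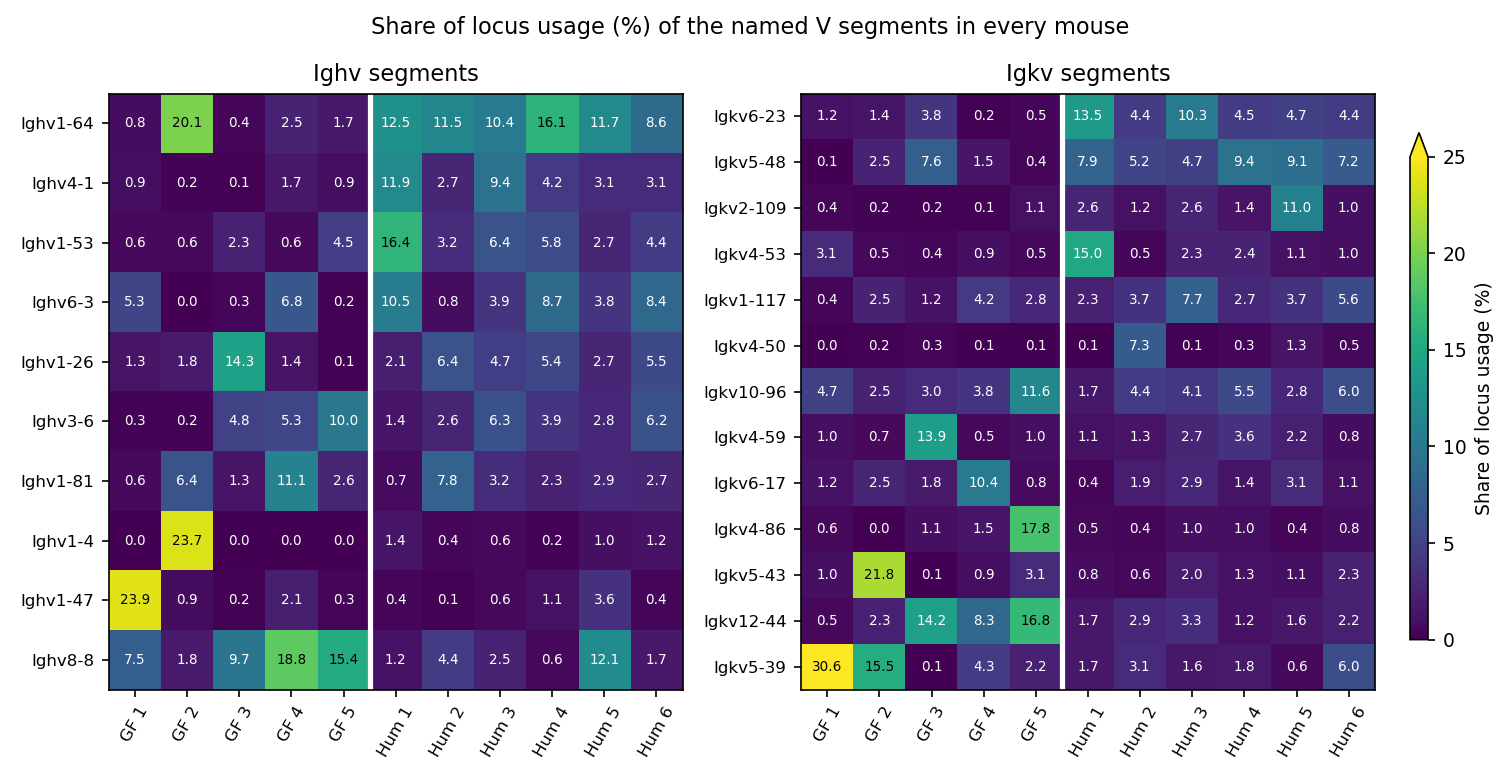
Share of locus usage (%) of the Ighv (left) and Igkv (right) segments that led the usage of at least 1 mouse or had one of the 8 highest mean shares, in 5 germ-free (GF) and 6 humanized (Hum) mice, sorted by the difference of group means. Ighv1-64 takes at least 8.61% in all humanized mice, whereas Ighv1-47, Ighv1-4, Igkv4-86 and Igkv5-43 are high in 1 germ-free mouse each.

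In the κ locus no segment led in more than 2 mice. The leading segments were Igkv5-39, Igkv5-43, Igkv12-44, Igkv6-17 and Igkv4-86 in germ-free mice 1 to 5, and Igkv4-53, Igkv4-50, Igkv6-23, Igkv5-48, Igkv2-109 and Igkv5-48 in humanized mice 1 to 6. Of the 21 segments among the 5 leading ones of any germ-free mouse, 18 were so in 1 germ-free mouse only. Of the 17 such segments of humanized mice, 13 were so in 1 humanized mouse only.

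Igkv5-48 and Igkv6-23 were the most widely shared κ segments of humanized mice, among the 5 leading ones of 6 and 5 mice. The share of Igkv5-48 was 0.057%, 2.46%, 7.55%, 1.52% and 0.364% in germ-free mice and 4.74% to 9.36%, with a median of 7.56%, in humanized mice (LFC of normalised reads 4.75, standard error 0.86, FDR = 2.29e-05). Germ-free mouse 3 lay within the humanized range and the others below it. The share of Igkv6-23 was 1.23%, 1.44%, 3.84%, 0.191% and 0.472% in germ-free mice and 4.35% to 13.5%, with a median of 4.61%, in humanized mice (LFC of normalised reads 5.28, standard error 0.85, FDR = 7.41e-07). Its groups did not overlap.

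Several κ segments were high in 1 humanized mouse. Igkv4-50 held 7.32% and Igkv4-80 held 6.29% of Igkv usage in humanized mouse 2, and no other mouse had more than 1.27% or 0.510%. Of the reads of all humanized mice on these segments, 89.7% and 92.3% came from that mouse. Igkv4-53 held 14.99% in humanized mouse 1, where the next highest humanized mouse had 2.42%, and Igkv2-109 held 10.99% in humanized mouse 5, where the next highest had 2.56%. Over all segments, 14 of 68 Ighv and 12 of 74 Igkv had more than 50% of their humanized reads in 1 of the 6 mice. These percentages pool raw reads, and mice with more V reads weigh more in them. Humanized mice 2 and 3 had 42156 and 41956 Igkv reads, and mouse 5 had 5615.

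Among germ-free mice, Igkv5-39 had the highest share of any Ighv or Igkv segment, with 30.6% in mouse 1 and 15.5% in mouse 2, between 0.075% and 4.30% in the other 3, and 0.628% to 6.02% in humanized mice. Its level did not pass the test (LFC 0.73, standard error 1.07, FDR = 0.686), and without germ-free mouse 1 its LFC was 3.05 (FDR = 0.017). Igkv5-43 held 21.8% in germ-free mouse 2, Igkv4-86 held 17.8% in mouse 5 and Igkv4-59 held 13.9% in mouse 3, and each was at or below 3.09% in the other germ-free mice. Igkv12-44 was high in 3 germ-free mice, with 0.537%, 2.29%, 14.2%, 8.26% and 16.8%, and had 1.18% to 3.29% with a median of 1.95% in humanized mice. Its normalised level did not pass the test (LFC 1.13, standard error 0.86, FDR = 0.354). Its LFC was 1.84 without germ-free mouse 5 (FDR = 0.136) and 0.75 without humanized mouse 2 (FDR = 0.591).

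Igkv10-96 had a share of similar size in both groups, with 4.69%, 2.46%, 2.97%, 3.81% and 11.6% in germ-free mice and 1.66% to 6.00%, with a median of 4.24%, in humanized mice. Igkv1-117 had 2.22% ± 1.45 (SD, n = 5) and 4.28% ± 2.03 (SD, n = 6), with overlapping groups. Igkv6-17, the leading segment of germ-free mouse 4 with 10.4%, had 0.417% to 3.10% in humanized mice. All 3 had higher levels in normalised reads in humanized mice, with LFC values of 2.56 (FDR = 0.00594), 4.31 (FDR = 7.35e-08) and 2.58 (FDR = 0.00291). Igkv10-96 reached an FDR of up to 0.0295 and Igkv6-17 of up to 0.0166 when 1 mouse was left out.

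The λ locus of the mouse has few V segments, and Iglv1 made up most of its usage. Iglv1 held 96.8%, 96.6%, 90.2%, 92.7% and 89.1% of Iglv usage in germ-free mice and 74.5% to 94.99%, with a median of 82.7%, in humanized mice. Iglv2 held between 0.956% and 1.91% in germ-free mice, and 7.49%, 3.74%, 21.8%, 21.3%, 1.16% and 18.9% in humanized mice. The overlap of the groups came from humanized mouse 5. The germ-free values of Iglv2 rest on 1 to 11 reads per mouse, and Iglv1 and Iglv2 share 1.95% of their windows. Their LFC values were 3.75 for Iglv1 (standard error 0.78, FDR = 2.12e-05), 6.80 for Iglv2 (standard error 1.16, FDR = 4.52e-07) and 3.35 for Iglv3 (standard error 0.47, FDR = 1.45e-09).

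The λ segments together made up 6.74%, 6.72%, 2.18%, 4.75% and 1.39% of light chain V usage in germ-free mice and 2.97% to 10.1%, with a median of 7.27%, in humanized mice. The means were 4.35% ± 2.499 (SD, n = 5) and 6.86% ± 2.32 (SD, n = 6), a difference of about the SD within a group.

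By family, named for the number after the locus, Ighv1 was the largest, with 36 of the 68 Ighv segments. It held 42.6%, 71.1%, 49.5%, 50.02% and 41.4% of Ighv usage in germ-free mice and 52.9% to 67.2%, with a median of 62.4%, in humanized mice. Germ-free mouse 2, in which Ighv1-4 and Ighv1-64 led, lay above the humanized range and the other 4 below it. Besides Ighv4, given above by its sole segment, Ighv2 was the heavy chain family whose groups did not overlap. It held 3.45%, 8.48%, 5.03%, 4.09% and 7.17% in germ-free mice and 1.76% to 3.44%, with a median of 2.72%, in humanized mice, so that the nearest mice differed by little.

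Other heavy chain families varied widely among germ-free mice. Ighv8 held 8.17%, 3.05%, 17.3%, 20.4% and 23.2% in germ-free mice and 1.14% to 14.6%, with a median of 3.29%, in humanized mice, the highest being mouse 5. Ighv3 ranged from 0.247% to 24.5% in germ-free mice and from 2.15% to 6.61% in humanized mice, and Ighv5 from 0.693% to 20.03% and from 4.42% to 6.55%. Ighv14 held 10.2% in humanized mouse 5 and at most 1.01% in the other humanized mice, most of it from Ighv14-4 with 362 reads and a share of 9.25%. The SD of the family share was larger in germ-free than in humanized mice for Ighv1 (11.9 against 4.86 percentage points), Ighv3 (9.12 against 1.91) and Ighv5 (7.08 against 0.764), as also for Ighv2, Ighv7 and Ighv8, and smaller for Ighv4, Ighv6, Ighv9, Ighv10 and Ighv14.

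Among κ families, Igkv4 was the largest, with 20 segments and 22.2% ± 8.76 (SD, n = 5) of usage in germ-free mice against 20.9% ± 3.98 (SD, n = 6) in humanized mice. Igkv6, with 9 segments, held 8.71%, 11.03%, 8.13%, 15.8% and 2.81% in germ-free mice and 11.7% to 26.0%, with a median of 16.0%, in humanized mice, and only germ-free mouse 4 lay within the humanized range. Igkv5 held 37.5% and 41.0% in germ-free mice 1 and 2 and between 5.77% and 7.73% in the other 3, below the humanized range of 8.58% to 15.6%. Igkv12 held 19.4%, 2.46%, 15.3%, 8.45% and 22.0% in germ-free mice and 2.605% to 6.62%, with a median of 5.50%, in humanized mice. Igkv2 and Igkv3 were highest in humanized mouse 5, with 14.0% and 11.3%. No κ family separated the groups.

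**Figure D4:**
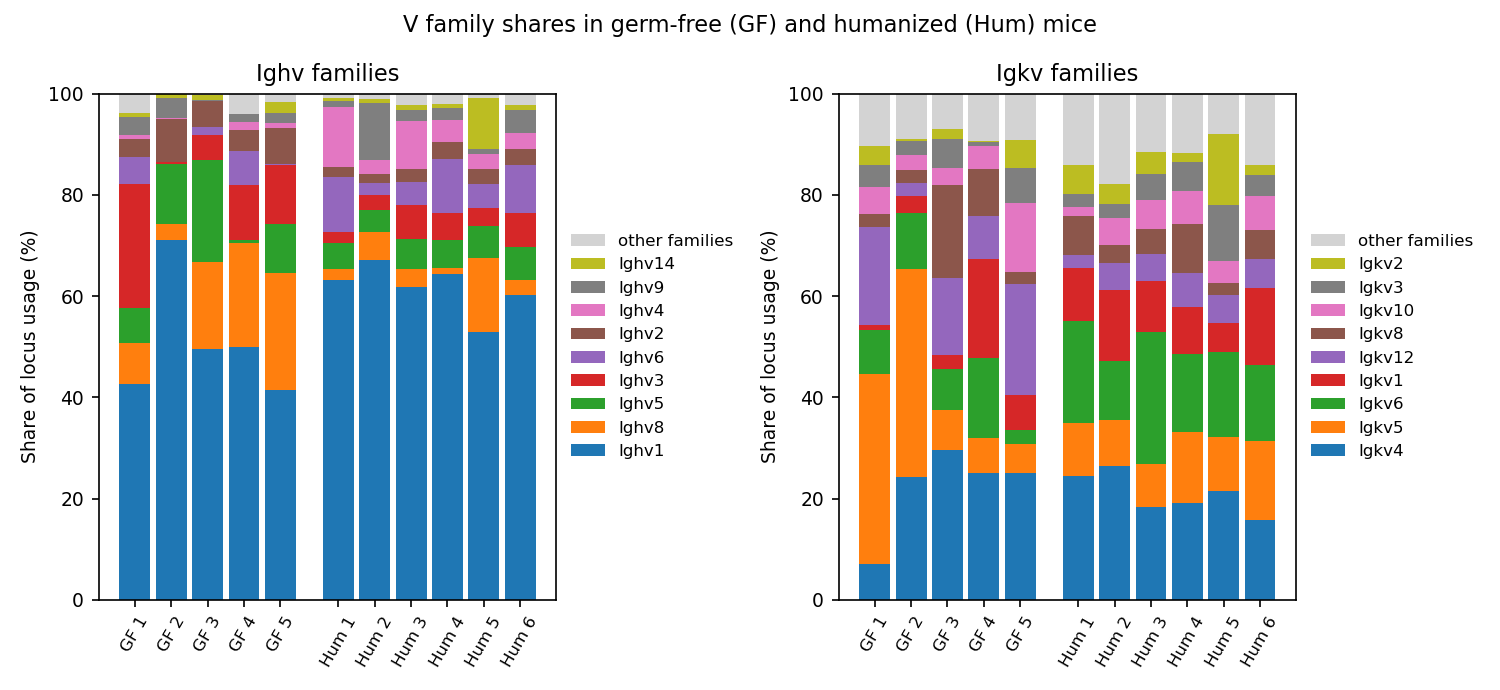
Share of locus usage (%) of the 9 V families with the highest mean share in Ighv (left) and Igkv (right), stacked for each of 5 germ-free (GF) and 6 humanized (Hum) mice, with the remaining families in grey. Ighv1 takes 52.9% to 67.2% in humanized mice and 41.4% to 71.1% in germ-free mice, and Igkv5 takes 37.5% and 41.0% in germ-free mice 1 and 2.

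Usage was more alike among humanized mice than among germ-free mice. The Morisita–Horn index, which is 0 for mice that share no segment and 1 for mice with equal shares, was computed for each pair of mice. For Ighv it ranged from 0.537 to 0.884 with a median of 0.745 over 15 pairs of humanized mice, and from 0.084 to 0.598 with a median of 0.207 over 10 pairs of germ-free mice. Between groups it ranged from 0.137 to 0.589 with a median of 0.377 over 30 pairs. For Igkv the ranges were 0.4663 to 0.824 (median 0.641) among humanized mice, 0.109 to 0.480 (median 0.215) among germ-free mice and 0.140 to 0.559 (median 0.305) between groups. Pairs share mice and are therefore not independent, and no test was made.

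The most alike pair was humanized mice 4 and 6 in both loci. Germ-free mice 4 and 5 were the most alike germ-free pair in Ighv, at 0.598, and germ-free mice 1 and 2 the least alike, at 0.084, whereas in Igkv the latter pair had 0.404. Humanized mouse 5 was more like germ-free mice 4 and 5 in Ighv (0.537 and 0.589) than any other humanized mouse was. Without Ighv1-64, the median among humanized mice was 0.647 and that among germ-free mice 0.221. With reads thinned to the shallowest mouse, these medians were 0.720 and 0.210, and for Igkv 0.628 and 0.221.

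**Figure D5:**
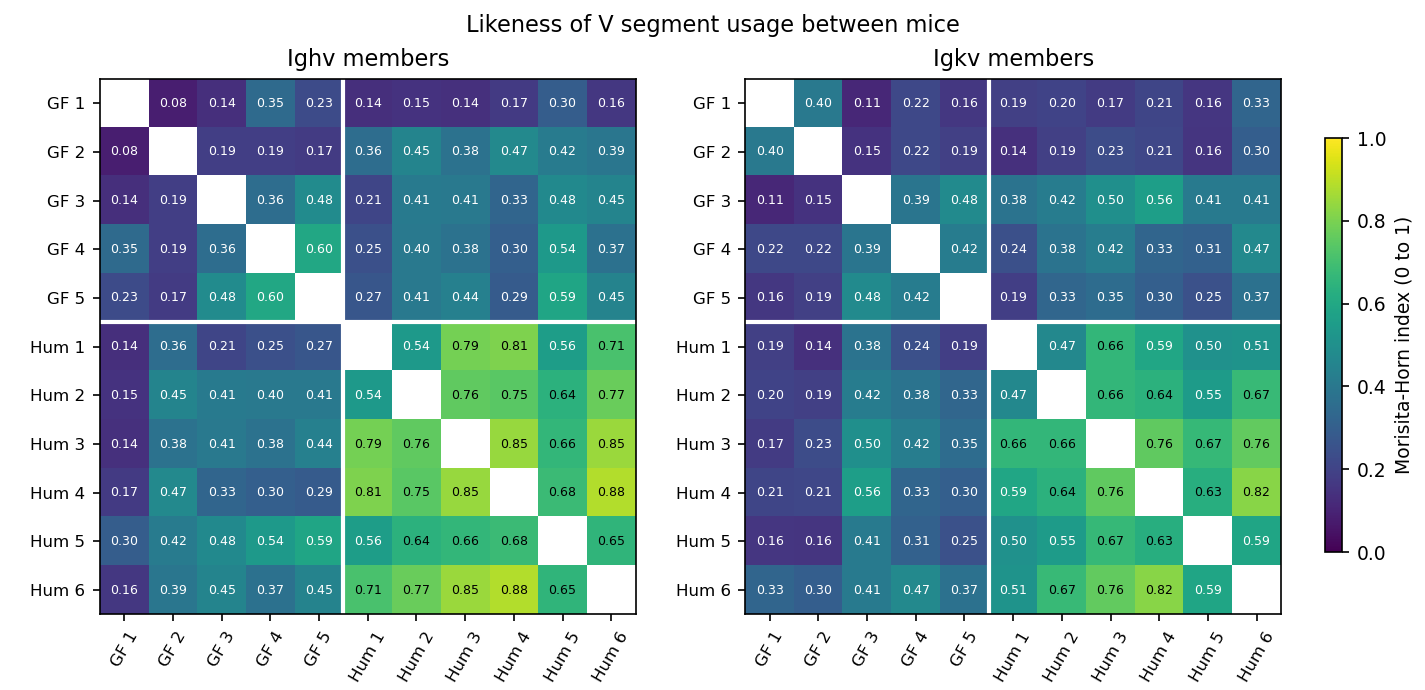
Morisita–Horn index of segment shares for every pair of mice, in Ighv (left) and Igkv (right), with 5 germ-free (GF) mice before the white line and 6 humanized (Hum) mice after it. Pairs of humanized mice reach medians of 0.745 and 0.641, pairs of germ-free mice 0.207 and 0.215.

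Of the 145 segments, 144 passed the low-expression filter of the comparison of all genes, and Ighv9-4 did not. At FDR below 0.01, 76 had higher expression in humanized mice, where 9.2% of all 19863 tested genes were called in this direction, and none had lower expression, where 10.1% of all genes were. The 76 comprise 34 Ighv, 39 Igkv and all 3 Iglv segments. No segment was lower at an unadjusted p below 0.05 in either the exact or the quasi-likelihood test of edgeR, nor at FDR below 0.01 in DESeq2. Since segments could enter through reads of the humanized mice alone, these numbers describe the chosen segments and are no measure of the locus. The LFC was above 0 for 139 segments and below 0 for 5, with a median of 3.67, against 0.0084 over all tested genes. The CPM of 39 segments did not overlap between groups, all higher in humanized mice, where 8.67% of all tested genes showed the same and 9.73% were lower without overlap.

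Variation between mice was large for the V segments. Their median dispersion in edgeR was 1.13, against 0.0286 over all tested genes. Leaving out each mouse in turn gave between 61 (without humanized mouse 2) and 87 (without humanized mouse 5) higher segments, and none lower. The share of all tested genes called in each of these fits is not given here, so the numbers describe the chosen segments only. When segments were required to have at least 10 reads in every mouse, 12 remained, of which 8 were higher, where 9.02% of all genes that met this requirement were.

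The highest LFC values were those of segments nearly without reads in germ-free mice. Ighv1-84 had 0, 0, 1, 1 and 1 reads in germ-free mice and 42 to 462 in humanized mice, a ratio of normalised reads of 393 with a 95% counting interval of 134 to 1908 (fitted LFC 8.44, standard error 1.21, FDR = 5.34e-11). Ighv1-58 had 0 to 5 reads in germ-free mice and 21 to 1124 in humanized mice (LFC of normalised reads 8.31, standard error 1.45, FDR = 3.89e-07). Igkv4-80 had 0 to 9 reads in germ-free mice and 9 to 2660 in humanized mice (LFC of normalised reads 8.26, standard error 2.03, FDR = 3.95e-04), the highest being humanized mouse 2, without which its LFC was 4.55 (FDR = 6.35e-05). Altogether 15 segments had at least 10 reads in 5 or 6 humanized mice and in no germ-free mouse. These 15 entered the description through the humanized mice alone, so their number follows in part from the threshold. The share of all genes with this pattern is not given here.

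The lowest LFC values were those of Ighv3-8 (−2.43, standard error 1.21, FDR = 0.134), Ighv1-47 (−0.90, standard error 1.19, FDR = 0.606) and Ighv5-12 (−0.20, standard error 1.12, FDR = 0.921). All 3 had their highest share in germ-free mouse 1, and without this mouse their LFC values were 0.59, 3.19 and 3.06. At the edge of the threshold, Ighv9-4 and Igkv4-69 lay just inside, with 10 and 11 reads in the mouse that decided the threshold, the one ranked 5 by reads. Ighv1-11 and Ighv1-77 lay just outside, with 9 reads in that mouse.

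When each segment was read as a share of its locus, fewer segments separated the groups. The shares of 13 segments, 7 Ighv and 6 Igkv, were higher in every humanized than in every germ-free mouse, and those of none were lower. Among them were Ighv4-1, Ighv1-58, Ighv1-84 and Igkv6-23, described above, of which Ighv1-58 and Ighv1-84 had 10 reads in no germ-free mouse. Shares exist for V segments only, so the number of 13 has no counterpart over all genes. The threshold was reached by 137 of the 145 segments in the humanized mice alone and by 12 in the germ-free mice alone. The balance of 13 against none therefore describes the chosen segments and is no measure of the locus.

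By position, the usage-weighted distance of the V segment from the constant region overlapped between groups in both loci. For Ighv, measured from Ighm, it was 1379 ± 154 kb (SD, n = 5) in germ-free mice and 1447 ± 68.6 kb (SD, n = 6) in humanized mice. For Igkv, measured from Igkc, it was 1249 ± 194 kb and 1392 ± 122 kb. The differences of the means, 68.7 kb and 143 kb, depended on single mice. For Ighv the difference was 20.7 kb without germ-free mouse 1, 43.7 kb without germ-free mouse 2, 121 kb without germ-free mouse 4 and 43.9 kb without humanized mouse 2. For Igkv it was 219 kb without germ-free mouse 5. All 68 Ighv segments lie on the minus strand of chromosome 12, whereas 27 of the 74 Igkv segments lie on the plus strand of chromosome 6. The plus-strand segments held 21.3%, 13.8%, 19.1%, 30.3% and 27.3% of Igkv usage in germ-free mice and 29.4% to 39.3%, with a median of 32.7%, in humanized mice. Only germ-free mouse 4 lay within the humanized range.

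The J segments, which are counted as rows of their own, also showed wide ranges among germ-free mice. Their rows are 36 to 100 bases long, shorter than a read, so shares per kilobase depend on the listed lengths. Ighj3 held 40.7%, 4.65%, 32.8%, 27.0% and 23.0% of Ighj reads per kilobase in germ-free mice and 32.5% to 56.7%, with a median of 41.2%, in humanized mice. In κ, Igkj5 ranged from 7.99% to 47.8% in germ-free mice and from 22.0% to 33.9% in humanized mice. The ranges of Igkj2 were of similar width, from 20.2% to 37.0% and from 12.8% to 28.7%. In the heavy chain constant regions, Ighm and Ighd together held 5.87%, 17.3%, 8.496%, 15.1% and 5.79% of reads per kilobase in germ-free mice and 0.903% to 2.99% in humanized mice, without overlap. Igha held 80.9% to 93.5% and 92.0% to 96.6%. In normalised reads neither Ighm (LFC 0.37, standard error 0.32, FDR = 0.449) nor Ighd (LFC −0.16, standard error 0.49, FDR = 0.855) passed the test, whereas Igha was higher in humanized mice (LFC 3.07, standard error 0.53, FDR = 1.36e-07). Larger LFC values were fitted for Ighg1 (8.88, standard error 0.95, FDR = 4.40e-16) and Ighg2b (5.02, standard error 0.73, FDR = 9.87e-10), whose levels in germ-free mice were 0.0531 ± 0.0423 and 0.194 ± 0.145 RPKM (SD, n = 5).

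Of 8 genes of V(D)J recombination and later diversification, 4 passed the filter and none was below an FDR of 0.01. Rag1 and Rag2, which cut the DNA for V(D)J joining, were listed at 0 in humanized mice and averaged 0.00404 and 0.00894 RPKM in germ-free mice. Of the germinal center genes Bcl6, S1pr2, Mybl1 and Gcsam, none passed the test. Among factors that bind the octamer of V promoters, Pou2af1, a coactivator of B cells, had an LFC of 2.18 (standard error 0.53, FDR = 5.58e-04), Pou2f1 an LFC of −0.33 (standard error 0.08, FDR = 0.00457) and Pou2f2 an LFC of 0.42 (standard error 0.41, FDR = 0.527). Of 8 genes of immunoglobulin secretion, 7 were higher, among them Pigr, the epithelial receptor that carries dimeric IgA (LFC 1.21, standard error 0.11, FDR = 7.94e-26). The other 6 are also among the plasma cell markers counted above. Of 8 T cell markers, 6 were higher as well, where 9.2% of all tested genes were.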

How the data were processed

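Colon RNA of 5 germ-free and 6 humanized mice was sequenced by the authors from poly(A)-selected libraries as paired reads of 101 bases, aligned to mm10 with TopHat2 2.1.0 and Bowtie2 2.2.3, and counted per gene with featureCounts of Subread 1.4.6-p5. The deposited values are raw counts. The annotation release, the strand setting and the treatment of reads that fit several segments are not given in the sources used here.

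The segments and gene lists were chosen with earlier results of these data known. Genes were filtered with filterByExpr, scaled by TMM and compared by the edgeR 4.0.16 exact test (R 4.3.3), with Benjamini-Hochberg FDR below 0.01 over 19863 genes and standard errors from the quasi-likelihood fit (limma 3.58.1). The procedure was tested on simulated data. DESeq2 1.42.0 served as an alternative. LFC is the log2 ratio of humanized to germ-free mice, and RPKM is CPM per kilobase of the deposited gene length. Shares, effective numbers and the Morisita–Horn index were computed in Python 3.11.15 from reads per kilobase within a locus and carry no test. They cover the described segments unless stated otherwise. Thinning used 20 draws. Windows of 101 bases were compared between V exons of the GENCODE annotation of GRCm38.

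Named segments were the leading Ighv and Igkv segment of every mouse, the 8 Ighv and 8 Igkv segments of highest mean share, all Iglv segments, the 3 highest and 3 lowest LFC values, and the segments nearest the threshold. The labels give no separate batches. A search of V promoters was planned and not made. Iglc1 and Iglc3 were not analysed here, and 1 gene of the lists is not reported here. The replicate numbers were checked for pairing through the correlation of deviations from the group means, which lay between −0.133 and 0.091, so the mice were not treated as pairs.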

Additional observations from a re-analysis of the deposited data

Results flagged for a closer look

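In groups of 5 or 6 mice, the highest or lowest mouse was compared with its nearest neighbour by Dixon's ratio. Of 142 groups of values tested, 34 had a mouse that stood apart, where chance gives about 1 in 20. Segments that were named because they led in 1 mouse are among them, so the number is not independent of that choice.

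Among germ-free heavy chain shares, germ-free mouse 1 stood apart for Ighv1-47 (23.9%), Ighv3-8 (21.8%) and Ighv5-12 (4.29%). Germ-free mouse 2 did so for Ighv1-4 (23.7%) and Ighv1-64 (20.1%), and germ-free mouse 3 for Ighv1-26 (14.3%). Among germ-free κ shares, mouse 1 stood apart for Igkv4-53 (3.09%), mouse 2 for Igkv5-43 (21.8%), mouse 3 for Igkv4-59 (13.9%) and mouse 4 for Igkv6-17 (10.4%). Mouse 5 did so for Igkv4-86 (17.8%), Igkv10-96 (11.6%) and Igkv2-109 (1.13%).

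Among humanized heavy chain shares, mouse 1 stood apart for Ighv1-53 (16.4%), mouse 2 for Ighv1-81 (7.81%), and mouse 5 for Ighv8-8 (12.1%) and Ighv1-47 (3.57%). Among humanized κ shares, mouse 1 stood apart for Igkv4-53 (14.99%), mouse 2 for Igkv4-50 (7.32%) and Igkv4-80 (6.29%), and mouse 5 for Igkv2-109 (10.99%).

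Families gave a similar list. Humanized mouse 5 stood apart for Ighv8 (14.6%), Ighv14 (10.2%), Igkv2 (14.0%) and Igkv3 (11.3%), humanized mouse 2 for Ighv9 (11.4%), and humanized mouse 1 for Igkv12 (2.605%, the lowest) and Igkv13 (1.92%). Germ-free mouse 1 stood apart for Igkv4 (6.99%, the lowest) and Igkv15 (0.400%), mouse 2 for Igkv17 (1.52%), mouse 3 for Igkv13 (1.99%) and mouse 5 for Igkv10 (13.6%). Germ-free mouse 1 also had an Iglv CPM of 10.1, where the next germ-free mouse had 2.55.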

How the results depend on the processing

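The higher effective number of segments in humanized mice kept its direction under every alternative run. Its difference between group means was 13.6 for Ighv and 19.6 for Igkv, and 5.82 and 12.1 over segments with at least 10 reads in at least 8 mice. Leaving out each mouse in turn gave 12.2 to 15.3 and 18.2 to 21.7. The 76 segments higher in humanized mice became 8 of 12 tested with at least 10 counts in every mouse (9.02% of all genes), 59 by the quasi-likelihood test (7.05% of all genes) and 77 by DESeq2 (11.0004%), which gave no adjusted p for 10 segments. With the replicate number as a block the quasi-likelihood test called 35 (2.55% of all genes), although the numbers did not pair the mice. Without 1 mouse the number was 61 to 87, and the share of all genes in these fits is not given here. The LFC of Igkv4-86 (0.14) was −0.018 with total counts and −0.19 to 2.94 without 1 mouse. With the replicate block the LFC was 1.54 for Ighv5-12, 0.31 for Ighv3-8 and 2.61 for Ighv1-47. Without 1 mouse these ran from −1.04 to 3.06, −2.95 to 0.59 and −1.32 to 3.19, the highest each time without germ-free mouse 1. Ighv1-4 had an LFC of 7.68 without germ-free mouse 2 (FDR = 8.28e-18), Igkv4-59 of 4.18 without germ-free mouse 3 and Igkv4-69 of 6.09 without germ-free mouse 4. Without 1 mouse the call was lost for Ighv1-26, Igkv10-96, Igkv6-17 and Igkv4-53 and gained for Ighv6-3 and Ighv3-6, in some of the fits. Merging segments that share windows, chosen after seeing the data, gave differences of 11.8 and 15.2. The low read numbers of germ-free mouse 2, 831 for Ighv and 1099 for Igkv, limit its rarer segments.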
